A study of Rattus norvegicus with 48 samples.

Results

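Lungs of filtered-air control rats were compared between 28 d and 1 d after the end of a repeated exposure schedule, across all genes, to see which transcripts differ with time in animals that received no oil vapor. The samples were chosen by their labels alone and comprised 12 of the 48 lungs in the series, 6 at 28 d and 6 at 1 d. All were from male Sprague-Dawley rats that weighed approximately 200 to 250 g and breathed filtered air in a whole-body chamber for 6 hours per day, 4 days per week, for 4 weeks, which makes 16 exposure days. The rats killed at 28 d were kept longer than those killed at 1 d, so time after the schedule and age cannot be told apart, and the labels give no ages. The rest of the repeated schedule, 12 lungs of rats exposed to 300 ppm oil vapor, and 12 air lungs of the single schedule, which had 1 exposure day, served to show where the difference stands apart. RNA came from a piece of whole lung, so fewer cells of a type and less RNA per cell cannot be told apart in any value below.

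The lung of a young rat goes on growing after the alveoli have formed, and during that time fibroblasts lay down elastin and collagen while cells of the alveolar wall divide. In the adult lung growth is slow, and transcripts for matrix and mitosis are known to be lower. Alveolar type 1 cells form the thin gas exchange surface and are sealed by tight junctions, and type 2 cells make surfactant.

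Levels are given as CPM, the count of a gene divided by all gene counts of its library and multiplied by 1000000. The labelled tissue carried its markers: Sftpc, the type 2 cell surfactant protein C, averaged 6300 ± 538 CPM at 28 d and 5935 ± 677 CPM at 1 d (SD, n = 6 each), and Scgb1a1, the club cell secretoglobin, averaged 2260 ± 276 CPM at 28 d and 1948 ± 288 CPM at 1 d. Libraries held 4290720 to 6082430 counts at 28 d and 4593017 to 6073154 at 1 d, and a count of 3 corresponded to between 0.493 and 0.699 CPM, below which a level was not told from 0 (counting error only). No 2 libraries of a group were copies of each other, as the chi-square statistic per gene was 2.96 to 12.8 over 30 pairs. Transcripts of other organs were present in some pieces. Liver marker genes summed to between 141.8 and 1207 CPM at 28 d (median 203.6) and between 127.9 and 220.6 CPM at 1 d (median 150.8), and the highest value was animal 82. Cardiac muscle markers summed to between 201.4 and 1611 CPM at 28 d and between 191.4 and 817.4 CPM at 1 d.

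A property of the count tables bears on some of these transcripts. When the 12 air animals of the repeated schedule were lined up with the 12 of the single schedule in the order of their numbers within each time, the counts of Alas2, the red cell heme synthesis enzyme, differed between the animals of a pair by a factor of 1.03 to 1.13 in all 12 pairs, and Alb (albumin) had 3873 counts in animal 82 and 3592 counts in its partner, animal 17. Of 15005 genes tested, 241 (1.61%) had a correlation over 0.8 between partners within times. They included 12 of 14 erythroid and 8 of 11 liver genes, so levels of these 2 groups are not treated here as independent between the schedules. None of the 48 genes called below was among them, and their correlations between partners ran from -0.39 to 0.62. The median was 0.25 over the called genes and 0.27 over all genes tested. The source of the likeness is not given in the labels and was not tested.

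After 28 d, 48 genes (0.32% of 15005 tested) differed from 1 d at an adjusted p under 0.05 (quasi-likelihood F-test of edgeR, Benjamini-Hochberg). Of these, 40 (0.267%) were higher and 8 (0.0533%) were lower at 28 d. The changes were small, with log2 fold changes of 0.30 to 0.92 among the genes that rose (median 0.48) and of -0.86 to -0.28 among those that fell (median -0.37), on a background whose median over all tested genes was -0.00186. In 32 of the 40 that rose, every 28 d lung lay above every 1 d lung, and in all 8 that fell every 28 d lung lay below. Such separation was found upwards in 0.66% and downwards in 1.11% of all genes tested. The number of calls rested on single libraries: it was 2 without 28 d animal 88, 23 without 87, 28 without 82 and 31 without 86, and 2 without 1 d animal 38, 7 without 37, 9 without 36 and 29 without 39, and between 38 and 54 without any of the other 4. Dynll2 and Hnrnpa2b1 were called in all 12 of these fits. Of the called genes named here, Psmc5 was called in 3 of them and Atp5d, Suclg1 and S100a11 in 2. Abcc9 and Cuedc2 were called in 1, and Rsrp1 and Cyp1b1 in 0. DESeq2 called 191 genes and limma-voom 244 from the same counts. All 48 genes kept their direction in the 25 other settings tried, which the choice of called genes largely fixes. The labels number 6 separate animals per group, and the p-values rest on a spread shared by the 4 groups of the schedule, oil vapor animals included. With the 12 air libraries alone 147 genes were called, and without oil vapor animal 43, whose library held 1537183 counts, 212 were called.

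Dynll2, a dynein light chain that links cargo to dynein and myosin motors, had the smallest p. It lay at 65.8 CPM in the lowest, 84.1 CPM in the median and 102 CPM in the highest of the 28 d lungs, against 45.04, 49.4 and 59.1 CPM in the 1 d lungs. The groups did not overlap, and the log2 fold change was 0.79 ± 0.10 (SE; adjusted p = 2.6e-04). Rab27a, the small GTPase that docks secretory granules and lysosome-related organelles at the membrane, had 45.2, 57.2 and 85.6 CPM at 28 d and 28.3, 36.7 and 43.3 CPM at 1 d, again without overlap (log2 0.80 ± 0.15; adjusted p = 0.0208). Atp6v0c, the proteolipid subunit of the proton pump that acidifies vesicles, had 76.2, 91.1 and 116 CPM at 28 d and 60.1, 62.6 and 73.8 CPM at 1 d (log2 0.58 ± 0.11). Every 28 d lung was above every 1 d lung for this gene also.

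Several of the genes that rose bind RNA or belong to the splicing machinery. They are grouped by known role and no list of splicing genes was tested, so no enrichment is claimed. Hnrnpa2b1, which binds nascent RNA and takes part in splicing and transport, had 240.3, 269.6 and 315 CPM (lowest, median, highest) at 28 d and 170.3, 190.1 and 229.7 CPM at 1 d, with no overlap (log2 0.57 ± 0.09; adjusted p = 0.00481). U2af1, which recognises the 3′ splice site, had 45.5, 51.4 and 54.3 CPM at 28 d and 35.2, 37.9 and 46.8 CPM at 1 d (log2 0.39 ± 0.08). For U2af1 the groups overlapped, since only 4 of the 28 d lungs exceeded the highest 1 d lung. Rbm8a, a core protein of the exon junction complex, had 24.2, 29.5 and 33.6 CPM at 28 d and 11.5, 19.2 and 22.6 CPM at 1 d (log2 0.68 ± 0.14; adjusted p = 0.0254), and Sf3b4, a U2 snRNP protein, rose by 0.47 ± 0.09. These 2 and the further called genes outside the naming rule were chosen after their values were seen.

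In the opposite direction, Rsrp1, an arginine- and serine-rich protein, had 141, 164 and 167 CPM at 28 d and 196, 205 and 208 CPM at 1 d (log2 -0.33 ± 0.07; adjusted p = 0.0442). Counts annotated as Srsf5-2, a near-identical copy of the splicing factor Srsf5, were 5.65, 7.34 and 10.8 CPM at 28 d and 11.3, 13.2 and 17.3 CPM at 1 d (log2 -0.75 ± 0.16). The groups did not overlap for either gene, but the Srsf5-2 value is uncertain because reads may be split between the copies. Rsrp1 was no longer called in any of the 12 fits that left out 1 animal.

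Other genes that rose encode proteins of the proteasome, translation and the nucleolus, again grouped by known role with no list tested. Psmc3, an ATPase subunit of the proteasome's regulatory particle, had 66.6, 72.2 and 84.2 CPM at 28 d and 45.8, 48.3 and 59.0 CPM at 1 d, with no overlap (log2 0.59 ± 0.10; adjusted p = 0.0178). Its partner in the same ring, Psmc5, had 48.5, 56.3 and 60.0 CPM at 28 d and 41.9, 43.9 and 48.4 CPM at 1 d, which left a gap of less than 1 CPM between the groups (log2 0.33 ± 0.07; adjusted p = 0.0448). Eif3b, a translation initiation factor subunit, had 75.6, 87.6 and 92.9 CPM at 28 d and 62.5, 71.3 and 75.3 CPM at 1 d (log2 0.33 ± 0.06). Here too the lowest 28 d lung stood just above the highest 1 d lung. Nolc1, a nucleolar phosphoprotein of ribosome production, had 53.5, 60.1 and 66.7 CPM at 28 d and 46.1, 49.2 and 50.7 CPM at 1 d (log2 0.34 ± 0.06). Naca, which binds chains as they leave the ribosome, rose by 0.31 ± 0.06. Of 23 cytosolic ribosomal protein genes 0 were called, where 0.32% of all genes tested were, and the list median was 0.02.

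The endoplasmic reticulum, membrane protein insertion and peroxisomes gave 3 further genes. Hsp90b1, the chaperone GRP94 of the reticulum lumen, had 562, 642 and 788 CPM at 28 d and 463, 501 and 589 CPM at 1 d, and 5 of 6 of the 28 d lungs exceeded all 1 d lungs (log2 0.40 ± 0.08; adjusted p = 0.0254). It was the called member of a list of 23 endoplasmic reticulum stress genes, of which 18 had positive log2 values (median 0.09). Another member, Pdia3, a disulfide isomerase, averaged 345 ± 26.99 CPM at 28 d and 307 ± 10.8 CPM at 1 d (SD, n = 6 each) and was not called (log2 0.21 ± 0.06; adjusted p = 0.203). Ccdc47, which helps to insert membrane proteins, had 193, 234 and 253 CPM at 28 d and 149.6, 172 and 199 CPM at 1 d, with 5 of 6 above (log2 0.40 ± 0.08). Scp2, the sterol carrier protein of peroxisomes, had 122.6, 149 and 174 CPM at 28 d and 104, 109.7 and 121 CPM at 1 d (log2 0.44 ± 0.09).

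The next genes that rose encode mostly nuclear proteins, and are set together by known role only. Banf1, which bridges chromatin to the nuclear envelope, had 25.9, 31.6 and 37.6 CPM at 28 d and 15.3, 19.5 and 21.6 CPM at 1 d, without overlap (log2 0.75 ± 0.15; adjusted p = 0.0254). Zc3h4, a zinc finger protein that restrains noncoding transcription, had 95.9, 108 and 128 CPM at 28 d and 77.7, 85.7 and 90.8 CPM at 1 d (log2 0.41 ± 0.08). Paf1, a subunit of a complex that travels with RNA polymerase II, rose by 0.53 ± 0.10. Pdap1, a phosphoprotein named for binding platelet-derived growth factor, had 43.9, 47.4 and 59.0 CPM at 28 d and 25.7, 31.4 and 34.5 CPM at 1 d, a wide separation (log2 0.72 ± 0.13; adjusted p = 0.0208).

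Some called genes encode mitochondrial proteins, and their log2 values ranged from 0.43 ± 0.09 in Cox17, a copper chaperone for cytochrome oxidase, through 0.44 ± 0.10 in Suclg1 of the citric acid cycle and 0.48 ± 0.11 in Atp5d of ATP synthase, to 0.58 ± 0.12 in Ndufb7 of complex I. These 4 were named after their values were seen. In the 12 fits that left out 1 animal, Cox17 and Ndufb7 were called in 4 each and Suclg1 and Atp5d in 2 each. In the list of 21 nuclear-encoded respiratory chain genes, which does not hold them, 16 had positive values (median 0.10) and 0 were called. Its members with the smallest p were the complex I subunits Ndufa8, at 43.01 ± 5.33 CPM at 28 d and 32.6 ± 2.33 CPM at 1 d (SD, n = 6 each; log2 0.43 ± 0.11; adjusted p = 0.113), and Ndufb10, at 40.9 ± 3.86 CPM at 28 d and 30.5 ± 4.63 CPM at 1 d (log2 0.46 ± 0.13; adjusted p = 0.133).

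Cldn18, the claudin whose lung form seals alveolar epithelium, was the called member of the alveolar type 1 list. It had 289, 331 and 470 CPM at 28 d and 234, 248 and 258 CPM at 1 d, with no overlap (log2 0.58 ± 0.11; adjusted p = 0.0208). The other 15 tested type 1 genes were not called, and the list's median was 0.12. Cav2, a caveolin of type 1 and endothelial cells, ran the other way at 435 ± 34.7 CPM at 28 d and 522 ± 19.7 CPM at 1 d (SD, n = 6 each) and did not pass (log2 -0.23 ± 0.06; adjusted p = 0.0906). Type 2 genes had positive values in 13 of 16 (median 0.13), and 0 were called. Muc1, an epithelial surface mucin, came closest with 0.39 ± 0.13 (adjusted p = 0.236). Bst2, the interferon-inducible membrane protein tetherin, had 30.8, 31.8 and 45.2 CPM at 28 d and 16.5, 22.2 and 24.7 CPM at 1 d, also without overlap (log2 0.72 ± 0.14; adjusted p = 0.0208). It was the only called gene of 34 interferon response genes, whose median was 0.02 with 19 positive. The next member by p was Psmb9, an immunoproteasome subunit (log2 0.20 ± 0.10; adjusted p = 0.465).

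**Figure D1:**
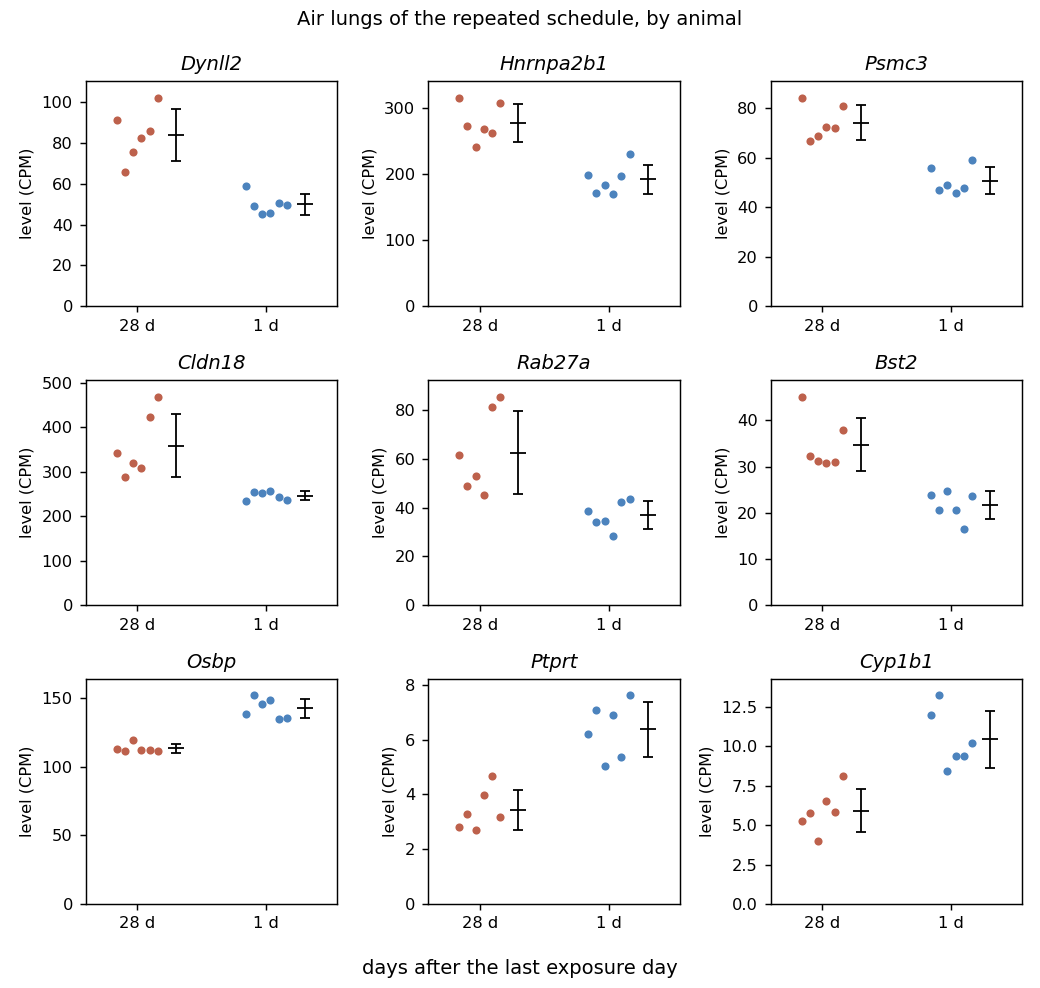
CPM of 9 called genes in each air lung of the repeated schedule, 28 d left of 1 d. Points are animals and bars are the mean ± SD of 6. The 28 d lungs lie above the 1 d lungs without overlap for Dynll2, Hnrnpa2b1, Psmc3, Cldn18, Rab27a and Bst2, and below them for Osbp, Ptprt and Cyp1b1.

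Among the 8 genes that fell, Osbp, which moves oxysterol and cholesterol between endoplasmic reticulum and Golgi membranes, was the most even. It had 111, 112 and 119.5 CPM (lowest, median, highest) at 28 d and 135, 142 and 152 CPM at 1 d (log2 -0.29 ± 0.05; adjusted p = 0.0178). Ptprt, a receptor-type tyrosine phosphatase, had 2.72, 3.23 and 4.66 CPM at 28 d and 5.05, 6.56 and 7.62 CPM at 1 d (log2 -0.86 ± 0.17; adjusted p = 0.0208). It is a low gene, and neither group overlapped the other. Cyp1b1, a cytochrome P450 induced through the aryl hydrocarbon receptor, had 3.97, 5.79 and 8.12 CPM at 28 d and 8.41, 9.82 and 13.2 CPM at 1 d (log2 -0.78 ± 0.17; adjusted p = 0.0363). Its call was lost in each fit that left out 1 animal.

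Cyp1a1, another gene induced through that receptor, had 0.706, 1.60 and 3.96 CPM at 28 d and 4.71, 6.34 and 12.2 CPM at 1 d. The groups did not overlap, yet the test was not passed (log2 -1.85 ± 0.54; adjusted p = 0.167). In the air lungs of the single schedule the same gene was lower at 28 d (log2 -2.19; adjusted p = 0.0018). Of 22 phase 1 enzymes tested, Cyp1b1 alone was called, 14 had negative values and the median was -0.16.

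Adamts12, a secreted metalloprotease of fibroblasts, had 37.4, 47.5 and 48.7 CPM at 28 d and 54.7, 58.8 and 66.8 CPM at 1 d (log2 -0.38 ± 0.08; adjusted p = 0.0254). Abcc9, the sulfonylurea receptor subunit of potassium channels in vessel wall cells, had 73.4, 78.5 and 94.6 CPM at 28 d and 103, 107 and 111 CPM at 1 d (log2 -0.37 ± 0.08; adjusted p = 0.0407). Pdcd6, a calcium-binding protein of vesicle transport, had 41.1, 45.5 and 49.0 CPM at 28 d and 51.8, 57.6 and 57.9 CPM at 1 d (log2 -0.28 ± 0.06; adjusted p = 0.0223). All 3 were lower in every 28 d lung than in any 1 d lung.

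The levels of the genes that rose were also summarised by animal. The median over 39 of them of log2 CPM, centred on each gene's mean over the 12 lungs, was 0.27, 0.11, 0.11, 0.26, 0.25 and 0.40 in the 28 d animals 82, 83, 84, 86, 87 and 88. In the 1 d animals 34, 36, 37, 38, 39 and 40 it was -0.19, -0.26, -0.28, -0.31, -0.26 and -0.14. The opposite signs at 28 d and 1 d follow largely from how the genes were called. Animal 88 was thus the highest of the 28 d lungs, animals 83 and 84 were closest to the 1 d lungs, and animal 38 was the lowest of all. After removing the group means, 220 of 780 pairs of risen genes (28.2%) correlated over 0.5 across the 12 animals (median r 0.31, from -0.63 to 0.91). These values share library and depth and are given as a description. The share among pairs of all tested genes was not computed, so 28.2% has no background to be set against.

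**Figure D2:**
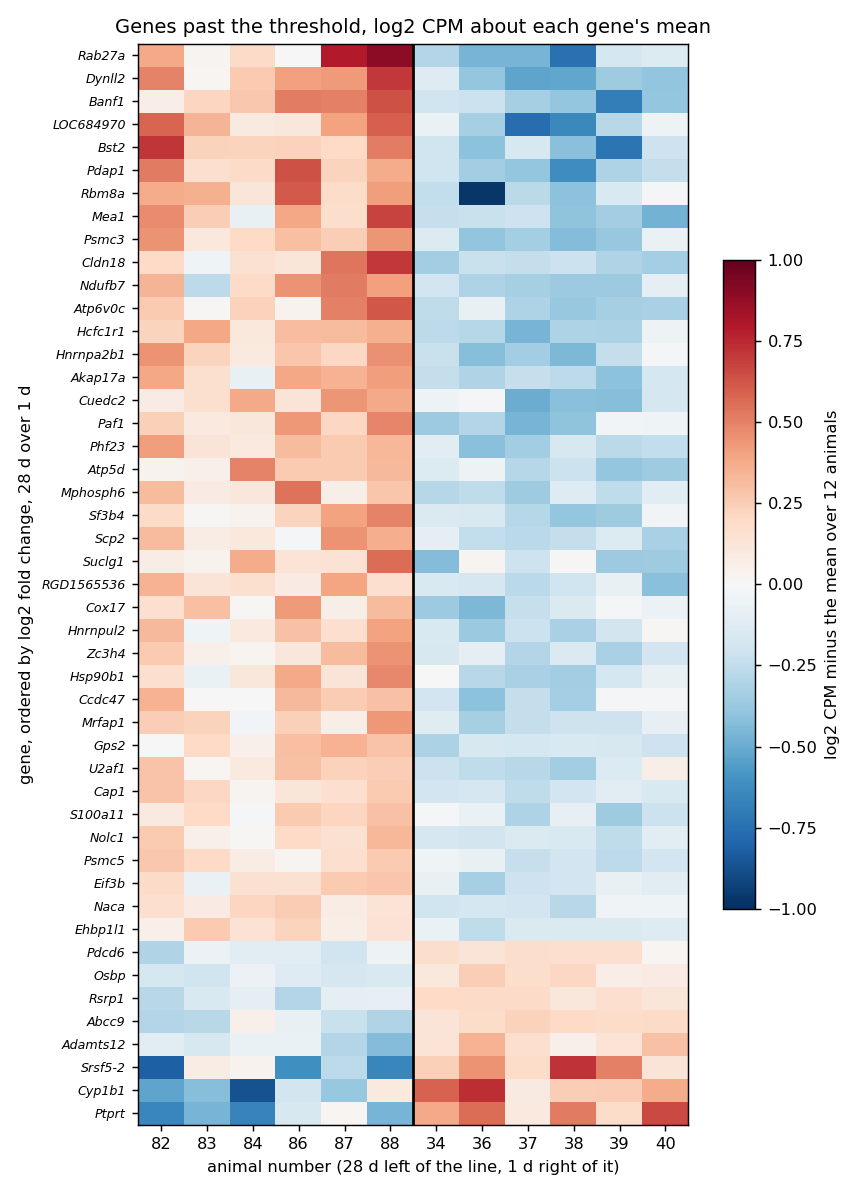
Log2 CPM of 47 called genes (rows) in the 12 air lungs (columns, 28 d left of the line and 1 d right of it), each gene centred on its own mean. The upper block holds genes that rose and the lower block genes that fell. Animal 88 is the highest column for the risen genes, and animals 83 and 84 are the palest of the 28 d lungs.

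Gene length moved with these calls. With the span of each gene in RefSeq's GRCr8 table matched by symbol (12406 of 15005 tested genes), the median span was 8.54 kb for 36 risen genes and 29.8 kb for 7 fallen genes, against 25.6 kb for tested genes. When matched genes were divided by span into 5 groups of equal size with medians of 4.55, 12.8, 25.6, 50 and 135 kb, the median log2 fold change in air lungs was 0.055, 0.025, -0.002, -0.019 and -0.036 from the shortest to the longest group. The shortest group held 19 of the risen genes and the longest group held 1. In oil vapor lungs of the same schedule the medians were 0.016, 0.014, 0.001, -0.025 and -0.034, and in air lungs of the single schedule -0.007, -0.011, 0.003, 0.013 and 0.018, which runs the other way. The mean log2 level of the shortest group minus that of the longest was taken for each lung. It was -1.42, -1.35 and -1.27 (lowest, median, highest) at 28 d and -1.54, -1.42 and -1.40 at 1 d. The 28 d and 1 d lungs overlapped, with 28 d animals 84 and 86 at -1.42, level with 1 d animals 36 and 38. With this difference as a covariate, a setting added after seeing the data, 12 genes were called, 10 higher and 2 lower, and 9 of them were among the 48: Dynll2, Hnrnpa2b1, Osbp, Bst2, Ccdc47, Cldn18, Hnrnpul2, Pdcd6 and Sf3b4. The log2 fold changes moved little. Their medians were 0.47 over the 40 risen and -0.33 over the 8 fallen genes, against 0.48 and -0.37 without the covariate. The covariate was built from the same libraries, and a part of gene length in the calls was not tested.

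RefSeq's table of promoters (GRCr8) held 40 of the 48 called genes by symbol. The 250 bases before the start are shown for 4 of them, to set beside their levels the short elements that are known from promoters of their kind. They are Hnrnpa2b1 (chr4:81875887-81876136, minus strand), Psmc3 (chr3:97487393-97487642, plus strand), Bst2 (chr16:18254968-18255217, minus strand) and Cyp1b1 (chr6:21094315-21094564, plus strand). Capitals mark a CCAAT box in Hnrnpa2b1, GGGCGG and CCAAT boxes in Psmc3, overlapping interferon-type elements (GAAA, any 2 bases, GAAA) in Bst2, and the GCGTG core of the aryl hydrocarbon receptor element in Cyp1b1, on either strand. Each is written 5′ to 3′ in the direction of the gene.
Hnrnpa2b1: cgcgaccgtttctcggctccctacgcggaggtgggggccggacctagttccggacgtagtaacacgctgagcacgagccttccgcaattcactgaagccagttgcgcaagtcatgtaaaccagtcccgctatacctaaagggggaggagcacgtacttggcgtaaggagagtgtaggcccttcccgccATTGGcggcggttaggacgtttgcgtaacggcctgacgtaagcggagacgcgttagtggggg
Psmc3: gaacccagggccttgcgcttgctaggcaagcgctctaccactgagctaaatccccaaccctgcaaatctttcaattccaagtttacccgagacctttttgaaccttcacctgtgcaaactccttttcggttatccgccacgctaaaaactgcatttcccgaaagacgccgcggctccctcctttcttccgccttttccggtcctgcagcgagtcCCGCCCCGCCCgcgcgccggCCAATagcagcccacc
Bst2: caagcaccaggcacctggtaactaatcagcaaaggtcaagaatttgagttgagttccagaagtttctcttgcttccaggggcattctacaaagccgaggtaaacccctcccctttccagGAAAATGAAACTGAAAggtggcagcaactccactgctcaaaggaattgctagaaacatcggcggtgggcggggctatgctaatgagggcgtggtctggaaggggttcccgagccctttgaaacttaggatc
Cyp1b1: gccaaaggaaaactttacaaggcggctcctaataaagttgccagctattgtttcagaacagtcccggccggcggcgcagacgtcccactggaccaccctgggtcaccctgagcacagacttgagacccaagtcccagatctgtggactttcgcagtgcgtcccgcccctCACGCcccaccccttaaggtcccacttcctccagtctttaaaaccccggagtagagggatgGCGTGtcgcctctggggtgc

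These motifs were chosen after the values were seen and were counted on both strands. GGGCGG was found for 23 of 34 risen genes (67.6%), against 57.9% of 10131 tested genes and 30.5% of all 33469 promoters. A gene was counted if any promoter under its symbol matched, while all promoters were counted singly. CCAAT was in 12 of 34 (35.3%), against 36.3% and 34%, and GCGTG in 19 of 34 (55.9%), against 44.3% and 25.9%. TATAAA was in 1 of 34 (2.94%), against 7.42% and 12.9%, and the interferon-type element in 3 of 34 (8.82%), against 3.05% and 3.41%. Median GC content was 58.4% for risen genes, 59.6% for tested genes and 51.2% for all promoters. Risen genes were thus close to tested genes in CCAAT share and GC content, and further from them in the other motifs. With 34 promoters and no test, neither likeness nor difference is claimed. A match marks letters, not a site in use.

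The genes that rose in air had smaller values in oil vapor lungs, a comparison of medians that is only a description because the genes were called in air. In oil vapor lungs of the same schedule, 37 of the 40 had positive log2 values at 28 d over 1 d, but their median was 0.18, against 0.48 in air. Cldn18 rose there too (log2 0.53; adjusted p = 0.03), as did S100a11, a calcium-binding protein that rose by 0.35 ± 0.08 in air and by 0.37 in oil vapor lungs (adjusted p = 0.031). Bst2 averaged 35.5 CPM at 28 d and 34.3 CPM at 1 d in oil vapor lungs. Of the 8 that fell in air, 6 had negative values in oil vapor lungs (median -0.22), and Rsrp1 fell there too (log2 -0.34; adjusted p = 0.038).

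The difference between air and oil vapor in the effect of time was tested as an interaction over the 24 lungs of the schedule. Of 15005 genes, 0 (0%) passed in edgeR, with 1098 at an unadjusted p under 0.05, 108 called by DESeq2 and 3 by limma-voom. Leaving out 1 air animal in edgeR gave 3 calls without 1 d animal 34, and 1 call each without 1 d animal 37 and without 28 d animal 87. The interaction was not refitted without any oil vapor animal, among them 1 d animal 43, whose library held 1537183 counts. Transcripts of other tissues differed in this contrast. All 14 erythroid genes (median log2 difference 3.86) and all 11 liver genes (median 5.88) were positive, with 0 called. Their part in the count of calls was not tested. The smallest adjusted p was that of Ptprt (0.0563), whose level was 3.44 CPM at 28 d and 6.37 CPM at 1 d in air but 4.82 CPM at 28 d and 3.21 CPM at 1 d in oil vapor lungs (log2 difference -1.42 ± 0.24). Next came Mal2, a vesicle protein of polarised epithelium (-0.43 ± 0.08; adjusted p = 0.0984), and Cdhr2, a brush border cadherin (-1.89 ± 0.37; adjusted p = 0.114). Hepacam2, an adhesion molecule (-1.08 ± 0.22), and Alox5, the leukotriene-forming lipoxygenase (-0.69 ± 0.14), followed with an adjusted p of 0.166 each.

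In air lungs of the single schedule, 476 of 14820 genes (3.21%) differed between 28 d and 1 d, 144 higher (0.972%) and 332 lower (2.24%). Only Adamts12 was called in both schedules, 2.08% of the 48 and 0.21% of the 476, and it was lower at 28 d in both. After the single schedule it had 43.3, 48.6 and 58.6 CPM at 28 d and 76.5, 86.7 and 96.9 CPM at 1 d (log2 -0.80; adjusted p = 2.5e-06), and the difference between schedules did not pass (0.42 ± 0.12; adjusted p = 0.12). Of the 40 genes that rose after the repeated schedule, 30 had positive values after the single schedule (median 0.06), and of the 8 that fell, 3 had negative values (median 0.02).

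When the 4 air groups were set side by side, the 1 d group of the repeated schedule had the lowest mean CPM in 39 of the 40 risen genes, and in 19% of all tested genes. It had the highest mean in 6 of the 8 fallen genes, and in 33% of all tested genes. Part of that follows from how the genes were called, since a risen gene is lower at 1 d than at 28 d of its own schedule. The shares over all tested genes are therefore not a like background. Cldn18 averaged 359 CPM at 28 d and 246 CPM at 1 d of the repeated schedule, and 390 CPM at 28 d and 385 CPM at 1 d of the single schedule. The schedules were deposited in separate tables, and a shift between tables and an effect of schedule or age cannot be told apart in such levels.

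**Figure D3:**
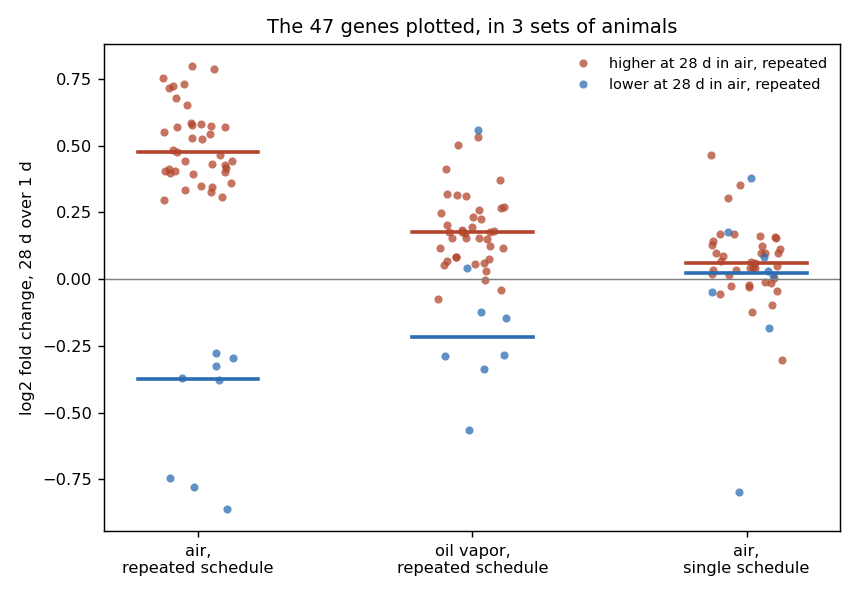
Log2 fold change, 28 d over 1 d, of 47 called genes in air lungs of the repeated schedule, oil vapor lungs of the repeated schedule and air lungs of the single schedule. Points are genes, and bars are medians of the genes that rose or fell in air lungs of the repeated schedule. Those medians are 0.48 and -0.37 where the genes were called, 0.18 and -0.22 in oil vapor lungs and 0.06 and 0.02 after the single schedule.

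The difference between the schedules in the effect of time in air passed the test in 31 of 15322 genes (0.202%), 19 with a higher and 12 with a lower value in the repeated schedule. The count was 13 without 28 d animal 87, 19 without 28 d animal 88, 14 without 1 d animal 36 and 15 without 1 d animal 40 of the repeated schedule. The fit took the libraries of both tables as independent, while the correlation between rank-matched partners had a median of 0.31 over these 31 genes (-0.39 to 0.72). Eln, the elastin precursor, led them. It had 409.7, 438 and 467 CPM at 28 d and 372, 428 and 478 CPM at 1 d of the repeated schedule, against 383.8, 429.8 and 699.5 CPM at 28 d and 931, 1192 and 1489 CPM at 1 d of the single schedule. The difference in log2 fold change was 1.37 ± 0.20 (adjusted p = 4.4e-04), and only the 1 d lungs of the single schedule stood apart. Fbln5, which tethers elastic fibers to cells, gave a difference of 1.03 ± 0.22 (adjusted p = 0.026) with mean levels of 55.5 CPM at 28 d and 51.2 CPM at 1 d of the repeated schedule and 61.5 CPM at 28 d and 115 CPM at 1 d of the single schedule.

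Genes of dividing and growing cells stood in the same list. The histone gene Hist1h1d had a difference of 0.99 ± 0.16 (adjusted p = 0.001), with 0.33 after the repeated and -0.66 after the single schedule. Pola2, a subunit of the polymerase that primes replication, had 0.78 ± 0.15 (adjusted p = 0.014), and Mest, an imprinted gene of fetal growth, 1.49 ± 0.35 (adjusted p = 0.0497). Hepacam2 ran the other way with -1.22 ± 0.24 (adjusted p = 0.014), from -0.62 after the repeated and 0.60 after the single schedule. LOC102555978, a locus without a given name, had -0.61 ± 0.11 (adjusted p = 0.0047). Of the 48 called genes, 4 were in this list: Osbp (-0.32 ± 0.07), Rsrp1 (-0.50 ± 0.10), Cuedc2 (0.85 ± 0.18) and RGD1565536 (0.48 ± 0.11).

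**Figure D4:**
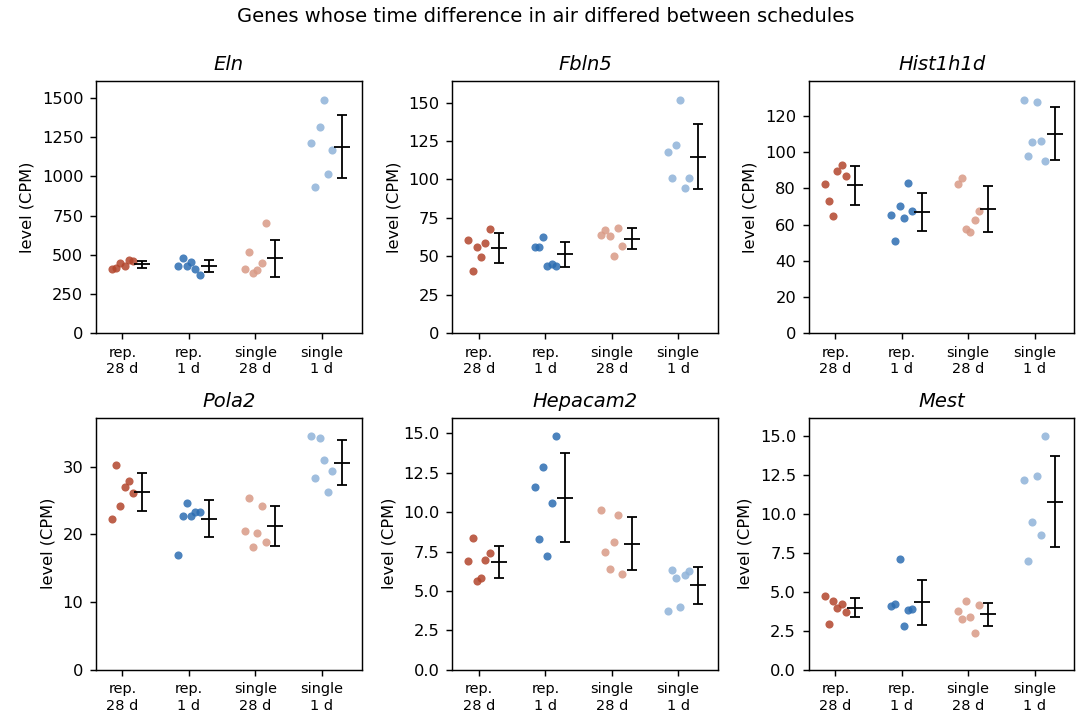
CPM of 6 genes whose change with time in air differed between the schedules, in the 4 air groups. Points are animals and bars are the mean ± SD of 6. Rep. is the repeated schedule. For Eln, Fbln5, Hist1h1d and Mest the 1 d lungs of the single schedule are the highest group, with a mean of 1189 CPM for Eln, while the 28 d and 1 d lungs of the repeated schedule average 439 and 428 CPM.

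Lists of growth and matrix genes were described in both schedules by counts and medians. Over all genes tested, 0.32% were called after the repeated schedule and 3.21% after the single schedule (2.24% lower). A count of 0 in a short list after the repeated schedule is therefore near the share of all genes. Of 35 cell division genes tested, 12 had positive and 23 negative values after the repeated schedule (median -0.03), and 0 were called. Of 36 after the single schedule, 35 were negative and 17 were called lower (median -0.67). The difference between schedules had a median of 0.63 over the list and was called in 0 members. Aurkb, the mitotic kinase, had the smallest p in the repeated schedule, at 5.85, 8.81 and 22.6 CPM at 28 d and 15.5, 28.8 and 50.1 CPM at 1 d, with overlap (log2 -1.39 ± 0.34; adjusted p = 0.0854). Foxm1, the mitotic transcription factor, averaged 5.90 ± 1.12 CPM at 28 d and 7.46 ± 0.763 CPM at 1 d (SD, n = 6 each) (log2 -0.31 ± 0.15; adjusted p = 0.458).

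Collagen genes had 5 positive and 15 negative values of 20 after the repeated schedule (median -0.12, 0 called), and 13 of 20 were called lower after the single schedule (median -0.41). Col3a1, a fibrillar collagen of interstitium and vessels, had 1655, 1928 and 2234 CPM at 28 d and 2056, 2738 and 2949 CPM at 1 d (log2 -0.41 ± 0.12; adjusted p = 0.185), and the difference between schedules was 0.63 ± 0.17 (adjusted p = 0.093). Col5a1, which sets fibril width, averaged 154 ± 18.5 CPM at 28 d and 199 ± 27.7 CPM at 1 d of the repeated schedule (SD, n = 6 each; log2 -0.33 ± 0.13; adjusted p = 0.333). Among 25 elastic fiber and crosslinking genes 0 were called after the repeated and 12 after the single schedule, and the difference was called in Eln and Fbln5. Within that list Efemp1, a fibulin, averaged 149 ± 20.7 CPM at 28 d and 125 ± 11.1 CPM at 1 d of the repeated schedule (log2 0.29 ± 0.08; adjusted p = 0.13), and Fbn1, the microfibril protein fibrillin-1, averaged 469 ± 46.6 CPM at 28 d and 584 ± 42.2 CPM at 1 d (log2 -0.28 ± 0.10; adjusted p = 0.315). Basement membrane genes gave 0 of 13 and 6 of 13, matrix glycoproteins 0 of 12 and 7 of 12, and replication-dependent histones 0 of 26 (median 0.13) and 9 of 27 (median -0.66), with the repeated schedule first in each case. The shares called among all genes tested were 0.32% and 3.21%, in the same order. Nid1, a linker of laminin and collagen networks, averaged 226 ± 15.7 CPM at 28 d and 285 ± 23.5 CPM at 1 d of the repeated schedule (adjusted p = 0.309), and the proteoglycan Dcn averaged 131 ± 24.7 CPM at 28 d and 182 ± 32.5 CPM at 1 d (adjusted p = 0.319). The difference was called in 4 histone genes, but in none of the basement membrane or matrix glycoprotein genes. Immediate early genes, which respond within minutes to stimulation, gave 0 of 23 called and a median of 0.08, against 6 higher and a median of 0.51 after the single schedule. All 22 genes of cholesterol synthesis and uptake had positive values after the repeated schedule (median 0.14), with 0 called, while 4 were called lower after the single schedule. Hmgcs1, which makes the building block of sterols, carried the called difference of that list (0.81 ± 0.19; adjusted p = 0.0497).

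**Figure D5:**
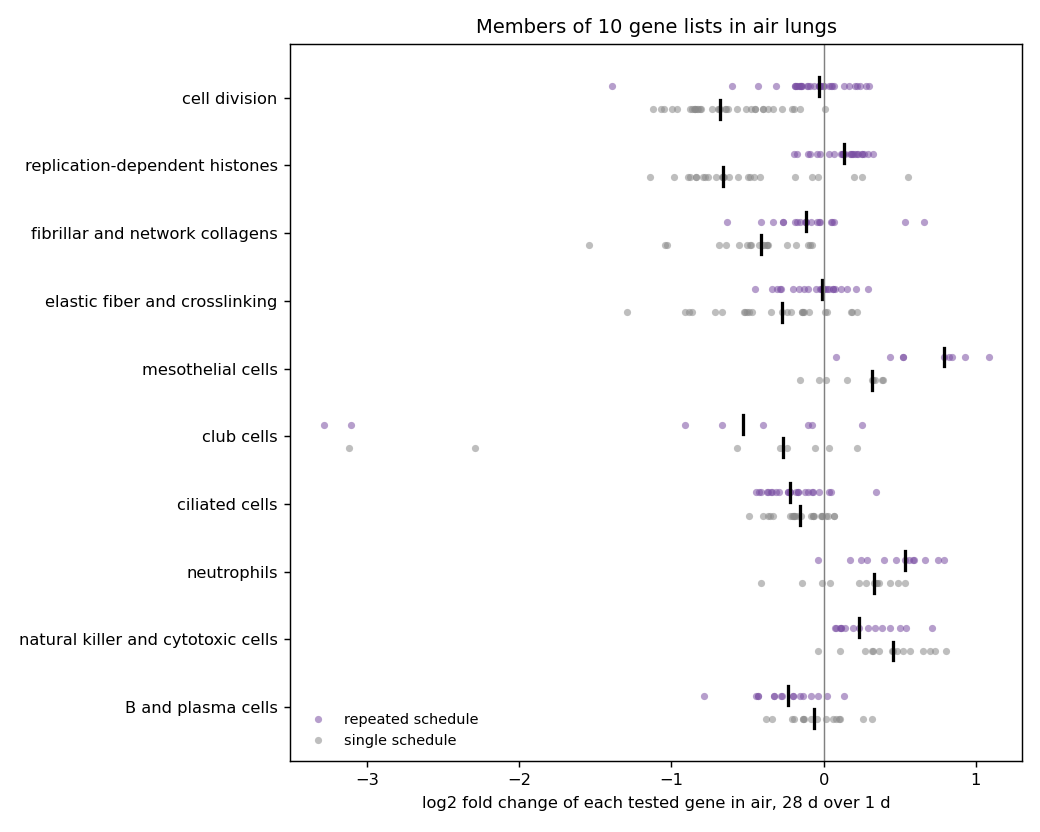
Log2 fold changes, 28 d over 1 d, of the members of 10 gene lists in air lungs of the repeated and of the single schedule. Points are genes and bars are medians. For cell division genes the median is -0.03 after the repeated and -0.67 after the single schedule, and for collagens -0.12 and -0.41.

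Some lists of cell type markers had medians away from 0 and held no called gene, where 0.32% of all genes tested were called. All 9 tested mesothelial genes, which mark the lining of the lung surface, had positive values (median 0.79). Of these, 8 had an unadjusted p under 0.05 in the edgeR test and 0 passed after adjustment. Over all 15005 genes tested, 1571 had an unadjusted p under 0.05. Upk3b, a uroplakin of that lining, had 9.82, 16.6 and 22.8 CPM at 28 d and 3.27, 7.48 and 11.2 CPM at 1 d (log2 1.09 ± 0.30; adjusted p = 0.131). Only the lower 28 d lungs overlapped with 1 d lungs. Lrrn4, another mesothelial gene, had 21.7, 35.0 and 51.0 CPM at 28 d and 8.93, 21.1 and 31.2 CPM at 1 d (log2 0.82 ± 0.25; adjusted p = 0.187). In oil vapor lungs both rose at 28 d, Upk3b with a log2 of 1.68 (adjusted p = 0.03) and Lrrn4 with 1.42 (adjusted p = 0.029). How much pleural surface each piece of lung carried was not recorded, and its part in these values was not tested.

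The club, mucous and ciliated cell lists held no called gene, where 0.32% of all genes tested were called. Muc5b, the gel-forming airway mucin, had 12.6, 14.4 and 18.0 CPM at 28 d and 16.8, 38.6 and 139.8 CPM at 1 d (log2 -1.96 ± 0.69; adjusted p = 0.31). The 28 d lungs were all low and alike, while the 1 d lungs spread over a wide range. Bpifa1, a secreted airway defence protein, had 0.529, 0.932 and 5.01 CPM at 28 d and 2.43, 7.86 and 46.8 CPM at 1 d (log2 -3.28 ± 0.92; adjusted p = 0.158), and most 28 d values were close to the level of 3 counts. Scgb3a1, a secretoglobin, averaged 6.405 ± 7.13 CPM at 28 d and 57.0 ± 61.3 CPM at 1 d (SD, n = 6 each), with spreads as large as the means (adjusted p = 0.211). Agr2, a disulfide isomerase needed for mucin folding, averaged 6.14 ± 1.03 CPM at 28 d and 11.4 ± 4.75 CPM at 1 d (adjusted p = 0.353). The club cell list summed to between 3136 and 4018 CPM at 28 d (mean 3488) and between 3009 and 4134 CPM at 1 d (mean 3442), a wide overlap. Scgb1a1, its most abundant member, averaged 2260 ± 276 CPM at 28 d and 1948 ± 288 CPM at 1 d (log2 0.25 ± 0.12; adjusted p = 0.476). Of 8 club cell genes 7 had negative values (median -0.53), of 8 mucous cell genes 6 (median -0.71), and of 24 ciliated cell genes 21 (median -0.22). The ciliated list summed to between 1153 and 1668 CPM at 28 d and between 1272 and 1897 CPM at 1 d, a wide overlap. Spag17, a protein of the central pair of motile cilia, averaged 46.3 ± 10.5 CPM at 28 d and 63.2 ± 14.8 CPM at 1 d (log2 -0.41 ± 0.18; adjusted p = 0.43).

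Immune cell lists held no called gene, against 0.32% of all genes tested. Neutrophil genes had positive values in 12 of 13 (median 0.53) and summed to 283.4 to 417.4 CPM at 28 d and 190.1 to 303.4 CPM at 1 d. Csf3r, the receptor for granulocyte colony-stimulating factor, had 21.4, 31.1 and 44.9 CPM at 28 d and 19.5, 22.3 and 24.7 CPM at 1 d (log2 0.53 ± 0.17; adjusted p = 0.206). Cxcr1, an interleukin-8 receptor, averaged 8.403 ± 2.12 CPM at 28 d and 5.73 ± 1.32 CPM at 1 d (SD, n = 6 each; adjusted p = 0.267). Natural killer and cytotoxic cell genes were positive in 15 of 15 (median 0.23), with Eomes, a transcription factor of those cells, at 0.71 ± 0.22 (adjusted p = 0.191) and Ccl5, a chemokine they release, at 0.50 ± 0.20 (adjusted p = 0.39). B and plasma cell genes were negative in 14 of 16 (median -0.24), with Cr2, the complement receptor of follicular B cells, at -0.79 ± 0.35 (adjusted p = 0.444), and T cell genes were positive in 10 of 21 (median -0.01). Glycam1, a lymph node venule gene, had 0.233, 0.429 and 1.59 CPM at 28 d and 1.12, 8.15 and 15.7 CPM at 1 d (log2 -3.57 ± 0.92; adjusted p = 0.123). Its 28 d levels were mostly at or under the level of 3 counts.

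Transcripts of tissues outside the lung wall were positive in 11 of 11 liver genes (median 2.2), 13 of 14 erythroid genes (median 0.37) and 11 of 13 cardiac muscle genes (median 0.88), with 0 called in each list and 0.32% over all genes tested. The liver sum was 1207 CPM in 28 d animal 82. In the other 28 d lungs it ran from 141.8 to 229.3 CPM, against 127.9 to 220.6 CPM at 1 d, so the liver difference leaned on 1 lung. With liver, erythroid and cardiac scores as covariates, 117 genes were called in the comparison of 28 d with 1 d air lungs, against 48 without them. Without animal 82, which had the highest liver sum, a fit to the air lungs alone called 66 genes, against 147 with it. No other animal was left out of that fit. In the fit to 24 libraries, 28 genes were called without animal 82, within a range of 2 to 54 on leaving out any 1 air animal. A part of liver RNA in these counts was not tested. Among 17 complement and acute phase genes, 12 were positive and 0 were called. Serping1, the C1 inhibitor, came closest at 89.4, 107 and 154 CPM at 28 d and 68.2, 76.8 and 92.5 CPM at 1 d (log2 0.59 ± 0.15; adjusted p = 0.101). Lbp, which presents bacterial lipopolysaccharide, averaged 13.8 ± 4.29 CPM at 28 d and 9.197 ± 2.32 CPM at 1 d (SD, n = 6 each; adjusted p = 0.24).

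The walls of vessels and airways gave no call either, against 0.32% of all genes tested. Smooth muscle and pericyte genes had negative values in 13 of 16 (median -0.14), among them Cnn1, the actin-binding calponin, at 25.1 ± 1.69 CPM at 28 d and 35.3 ± 6.01 CPM at 1 d (SD, n = 6 each; log2 -0.45 ± 0.17; adjusted p = 0.326), and Myh11, the smooth muscle myosin, at 657 ± 61.7 CPM at 28 d and 809.7 ± 113 CPM at 1 d (log2 -0.27 ± 0.10; adjusted p = 0.356). Endothelial genes were positive in 12 and negative in 12 of 24 (median 0.00175). Clock genes were negative in 13 of 19 (median -0.07), glucocorticoid-responsive genes in 6 of 12 (median -0.01) and NRF2 targets, which guard against oxidants, in 11 of 18 (median -0.04), with 0 called in each list.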

How the data were processed

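The authors deposited whole-number counts of reads per gene, one table for each schedule. Per the submitters' processing notes the build was Rnor_6.0, and the tools include HISAT2 2.1.0, HTSeq 0.6.1, SAMtools 1.8, Trimmomatic 0.35 and bcl2fastq 2.19. The annotation and whether counting used strand are not given in the sources used here. Antisense overlaps cannot be told apart. Per the labels' protocols, libraries came from rRNA-depleted total RNA with a stranded kit and 12 PCR cycles.

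Genes of the repeated schedule passing filterByExpr were fitted over its 24 libraries, all 4 groups sharing the spread, with TMM factors and edgeR 4.0.16 (robust quasi-likelihood, R 4.3.3). Calls had a Benjamini-Hochberg adjusted p under 0.05, and SE is the log2 fold change divided by the root of F. The schedules were compared in a fit of 48 libraries. Limma 3.58.1, DESeq2 1.42.0 and sva 3.50.0 served alternatives. Scripts were tested on simulated data.

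Members and lists were chosen with earlier results of these data known. The rule named, at a mean of at least 1 CPM and with a gene symbol, the 12 called genes with the smallest p and the 6 with the largest change in each direction, 2 to 4 genes with the smallest p of lists described, and 5 genes of each interaction. Some genes that this rule would name are not reported here. For some lists fewer are named.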

Additional observations from a re-analysis of the deposited data

Results flagged for a closer look

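Among 212 groups of 6 values tested for a sample that stands apart (library totals, levels of named genes and summed lists), 13 had such a sample (6.13%), and chance alone flags about 1 in 20 groups. At 28 d these were animal 82 with 1207 CPM of summed liver genes (next 229.3), 683.4 CPM of Alb (next 50.56) and 1.588 CPM of Glycam1 (next 0.6268). Animal 84 stood above the other 28 d lungs with 119.5 CPM of Osbp (next 113.1), 5.014 CPM of Bpifa1 (next 0.9864) and 20.68 CPM of Scgb3a1 (next 5.999), and animal 83 with 309.3 CPM of Mal2 (next 289.4) and 64.28 CPM of Psmb9 (next 47.11). At 1 d, animal 36 stood above with 73.84 CPM of Atp6v0c (next 65.11), animal 38 with 559 CPM of Cav2 (next 524.5) and animal 37 with 7.101 CPM of Mest (next 4.24). Animal 40 stood below with 51.82 CPM of Pdcd6 (next 55.65), and animal 34 with 16.92 CPM of Pola2 (next 22.72).

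Effects of time in air that differed between the repeated and the single schedule, by edgeR's interaction test with adjusted p under 0.05, were those of Eln (1.37), Hist1h1d (0.99), LOC102555978 (-0.61), Pola2 (0.78) and Hepacam2 (-1.22), as differences in log2 fold change. Fbln5 (1.03), Hmgcs1 (0.81) and Mest (1.49) followed. Among genes called in the repeated schedule, the same held for Rsrp1 (-0.50), Osbp (-0.32), Cuedc2 (0.85) and RGD1565536 (0.48).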

How the results depend on the processing

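The 48 calls at 28 d over 1 d became 48 with RLE size factors (47 of the same genes) and 34 without a filter on low counts. They became 191 with DESeq2, 244 with limma-voom and sample weights, 147 from the 12 air libraries alone, 124 from all 48 libraries, 212 without oil vapor animal 43, 196 with 1 surrogate variable, 117 with scores of other tissues and 0 with a minimum of 1.5-fold. Of settings added after seeing the data, the gene length score gave 12, 51 came from leaving out genes matched between the tables, and the air libraries without animal 82 gave 66. Leaving out 1 animal gave 2 to 54 calls. The higher share of calls was 83.3%, against 71.2% with DESeq2 and 73.4% with limma-voom. The cause of these moves was not tested.

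The 0 calls of air against oil vapor became 108 with DESeq2, 3 with limma-voom and 0 to 3 on leaving out 1 animal. The 31 calls between schedules became 28 with RLE size factors, 20 without the filter, 114 with DESeq2, 80 with limma-voom and 13 to 36 on leaving out 1 animal, with 14 without animal 36, 15 without animal 40, 13 without animal 87 and 19 without animal 88. All 48 called genes of the repeated schedule kept their direction in the 25 other settings. The uncalled log2 values of Alas2 (-0.2979 with scores of other tissues, -0.3065 with the length score) and Sftpc (-0.03549 with the length score) changed sign, as did that of Mest in fits without 1 animal (-0.187 to 0.1168, with 0.0008904 without animal 83).

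No paired analysis was possible because the labels share no animal number between groups, and order alone was not taken to pair animals. A level of 3 counts is between 0.493 and 0.699 CPM, and the lowest 28 d values of Glycam1 (0.233 CPM) and Bpifa1 (0.529 CPM) lay below or within that range.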
